A study of Mus musculus with 2 samples.

Results

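Transcripts of 28 genes of cholesterol and fatty acid synthesis were followed in EpiSC, mouse stem cells of the primed pluripotent state that are derived from the epiblast of the implanted embryo. The genes were chosen by name as enzymes and regulators of these pathways, at a time when earlier results of these data were known. All 28 were found among the 31736 gene names of the array, where 41 of 39272 probes carried one of their names. Clone 1 and clone 2 are both wildtype and female, on a C57BL/6 background, and were taken at passage 9 after trypsin collection. Each clone was read on 1 Agilent array, so every comparison sets 1 clone against 1 other clone and has no replicate check. The deposited design text gives the purpose as a check of these lines against EpiSC described before.

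Cholesterol is built from acetyl-CoA through mevalonate, isoprenoid units, squalene and lanosterol, and fatty acids are built from citrate by way of malonyl-CoA. Both routes are driven by the SREBP transcription factors, which stay in the endoplasmic reticulum while sterols are plentiful and move to the Golgi for cleavage when sterols run low. Growing pluripotent cells need both lipids for new membranes, and sterols also modify Hedgehog ligands.

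Levels are log2 signals after subtraction of each array's 75th percentile, and differences are clone 2 minus clone 1 on the log2 scale. Levels of different probes are not compared, since probes bind with different strength. The scanner software gives each spot an error, preset at a fraction of 0.1 of the signal plus a background term, so that a difference between the arrays carries a spot error near 0.20. Probes printed 10 times on each array had a median SD of 0.07 for clone 1 and 0.08 for clone 2, which comes to 0.11 for a difference of single spots. A difference is described as beyond the spot error when it is larger than 2 of the software's errors. Neither measure includes the spread between cultures of a clone.

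The defining markers of the cell type were present. All 6 epiblast markers (Pou5f1, Nanog, Fgf5, Otx2, Pou3f1, Dnmt3b) were well above background on both arrays. Hepatocyte markers, of a tissue with strong lipid synthesis, were well above background on neither array (0 of 4), and of the 4 adipocyte markers only Fabp4 was, on both arrays. All 7 fibroblast markers were detected on both arrays, with summed linear levels of 78.8 in clone 1 and 86.7 in clone 2. Of 4 macrophage markers, 2 were detected on both arrays, with sums of 2.11 and 2.51 for these 2. The main probe of Csf1r had a difference of 0.83 and its second probe 0.09, and Lyz2 had a difference of -0.24. The sources used here do not say whether feeder cells were present. In bulk RNA, fewer cells of a type and less RNA per cell cannot be told apart, and the part of these other cells in the values below was not tested.

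All 28 genes were detected on both arrays, against 54.5% of all gene names. Of the 41 probes 40 were well above background on both, and the exception was the second probe of Fdft1. Of the 28 genes, 14 (50%) differed between the clones by less than 0.2 log2. Among all 17282 genes measured on both arrays the middle 50% lay between -0.15 and 0.23, a range of about the same width. In clone 1, 17 of the 28 (60.7%) had the higher signal, beside 44.3% of all measured genes. In clone 2 the other 11 (39.3%) were higher, beside 55.7%. The median difference was -0.10, beside 0.04 over all 17282 genes. None was 2-fold apart, beside 2.87% of all measured genes, and only Insig1 was at least 1.5-fold apart. It was higher in clone 1, a share of 3.57% beside 3.85% of all measured genes, and none was 1.5-fold higher in clone 2, beside 5.95% of all genes. Differences beyond the spot error were found for 3 genes higher in clone 1 (Insig1, Hsd17b7 and Lss), which is 10.7% of the members beside 6.54% of all genes, and for none higher in clone 2, beside 10.5%. The count of 3 depended on the processing, with the spot errors kept. It was 6 of 28 with quantile normalization and with the authors' deposited values, beside 6.82% and 7.13% of all genes. Both added Hmgcs1, Idi1 and Scd2. With normexp background correction it was 4, beside 4.35% of all genes, with Hsd17b7 left out and Idi1 and Scd2 added. Against 2 SD of the measured spot noise, a narrower limit, 9 genes were higher in clone 1 (32.1%, beside 19% of all genes) and 5 in clone 2 (17.9%, beside 26.7%). The members are few and each clone has 1 array, so whether these shares set the pathway apart from the array was not tested.

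**Figure D1:**
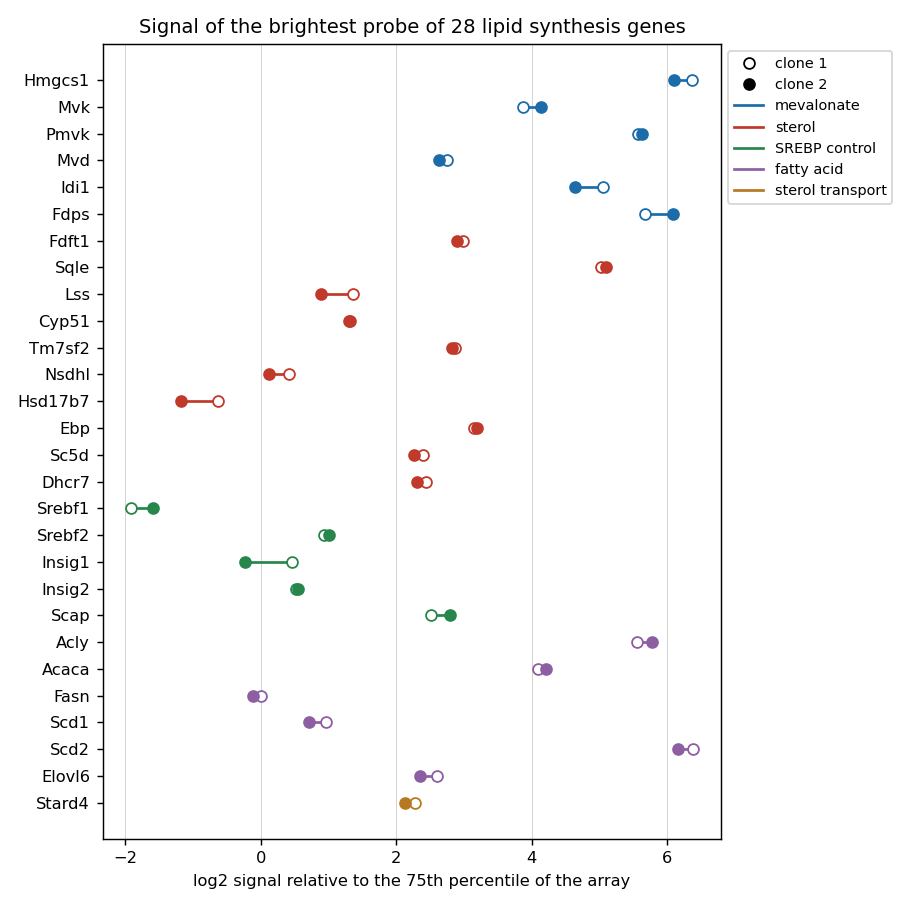
Log2 signal of the brightest probe of each of the 28 genes after subtraction of its array's 75th percentile (horizontal axis), with clone 1 as open and clone 2 as filled circles, 1 array each, coloured by role. The circles of a gene lie close together, and the widest gap is that of Insig1 (0.46 in clone 1 and -0.23 in clone 2); levels of different genes rest on different probes and are not comparable.

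The 6 enzymes from acetoacetyl-CoA to farnesyl diphosphate showed no common direction, with 3 higher in each clone and a median difference of -0.04. Of all measured genes, 44.3% were higher in clone 1 and 55.7% in clone 2. Hmgcs1, the cytosolic HMG-CoA synthase, had levels of 6.36 in clone 1 and 6.09 in clone 2. Its difference of -0.27 lay within the spot error, and the 67 detected spots around it differed by a median of 0.17 in the opposite direction. The probe is placed on an unassigned piece of chromosome 13 in mm9.

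The mevalonate kinases and the decarboxylase differed by 0.25 log2 or less between clones. Mvk, which phosphorylates mevalonate, had 3.88 and 4.13 by its brighter probe and 1.61 and 1.65 by the other. Pmvk, which adds the second phosphate, had 5.57 and 5.62, and its second probe had 4.34 and 4.15. Thus both probes of Mvk were higher in clone 2, while those of Pmvk pointed in opposite directions (0.05 and -0.19). Mvd, the decarboxylase that forms isopentenyl diphosphate, had 2.76 and 2.63.

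The next enzymes in the route had differences of opposite sign, neither beyond the spot error. Idi1, the isomerase of isopentenyl diphosphate, had 5.05 in clone 1 and 4.64 in clone 2, which is 1.33-fold higher in clone 1. Fdps, the farnesyl diphosphate synthase that uses its product, had 5.68 and 6.08, which is 1.32-fold higher in clone 2. The differences of -0.41 and 0.41 both fell just short of 2 spot errors, and Fdps had the largest difference in favour of clone 2 among the 28 genes. The Idi1 probe lies on chromosome 13 from 8891524 to 8891583 and the Fdps probe on chromosome 3 from 88897549 to 88897608 in mm9, and 1 spot next to that of Idi1 differed by 2-fold or more.

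The squalene and sterol enzymes leaned towards clone 1, with 8 of 10 higher there beside 44.3% of all measured genes, and a median of -0.10. Fdft1, squalene synthase, had 2.98 and 2.90 by a probe that spans a splice junction on chromosome 14. Sqle, squalene epoxidase, had 5.02 and 5.10. These first steps of the sterol branch were thus level between clones. Lss, which folds epoxysqualene into lanosterol, had 1.36 in clone 1 and 0.89 in clone 2, or 1.39-fold higher in clone 1. Its difference of -0.47 was beyond the spot error of 0.20, while the 60 spots around it differed by a median of -0.06.

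Downstream of lanosterol, most enzymes differed by less than 0.2 log2. Cyp51, the lanosterol demethylase, had 1.32 and 1.31, the smallest difference of the set. Tm7sf2, a sterol reductase, had 2.87 and 2.83, and its second probe had -0.20 and -0.51. Ebp, a sterol isomerase, had 3.15 and 3.19. None of these was beyond the spot error. Sc5d, a sterol desaturase, had 2.39 and 2.27, and Dhcr7, the reductase that makes cholesterol from its direct precursor, had 2.44 and 2.31.

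Of the 2 members that act in demethylation at carbon 4 of the sterol ring, Hsd17b7 differed beyond the spot error and Nsdhl did not. Nsdhl, the dehydrogenase of this complex, had 0.41 in clone 1 and 0.12 in clone 2 by the brighter of its probes, whereas the second ran the other way (-2.12 and -1.94). Hsd17b7, the ketoreductase of the same complex, had -0.64 in clone 1 and -1.18 in clone 2 by 1 probe and -0.73 and -1.13 by the other. Both Hsd17b7 probes were therefore higher in clone 1, by 1.45-fold and 1.32-fold, at positions 171883182 and 171880203 of chromosome 1 in mm9. The first difference was beyond the spot error and the second, -0.40, was not.

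Among the 5 genes that control SREBP, 4 were higher in clone 2, beside 55.7% of all measured genes, and Insig1 was higher in clone 1. Insig2 and Srebf2, which are among the 4, took both signs over the ways of processing. Srebf1, which encodes the SREBP-1 factors, had -1.92 in clone 1 and -1.58 in clone 2. Srebf2, which encodes the SREBP-2 factor of the sterol genes, had 0.94 and 1.01, with -2.38 and -2.56 by its second probe. Scap, the sterol sensor that escorts SREBP to the Golgi, had 2.52 and 2.80. None of these differences (0.34, 0.07 and 0.28 by the brighter probes) was beyond the spot error.

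The 2 Insig genes encode the endoplasmic reticulum proteins that hold back Scap. Insig1, itself a classical SREBP target, had 0.46 in clone 1 and -0.23 in clone 2. This is 1.61-fold higher in clone 1, a difference of -0.69 with a spot error of 0.20, and 2.82% of measured genes had a lower value. The probe lies on chromosome 5 from 28404246 to 28404305 in mm9, the 67 spots around it differed by a median of 0.06, and no adjacent spot differed by 2-fold. Insig2, which is not a main SREBP target, had 0.51 and 0.55, and its second probe had -1.37 and -1.16. The difference of Insig1 was lower than that of Insig2 by 0.72 log2, and 2 spot errors around the value of -0.72 span -1.30 to -0.14. The 61 spots around the Insig2 probe differed by a median of 0.26, and with the medians of neighbouring spots subtracted the contrast was -0.52, with a span of -1.10 to 0.06 that includes 0. Under each of the other ways of processing the span excluded 0. Of these, the percentile over detected probes and keeping flagged spots left the contrast unchanged at -0.72, so they are no separate check. For the other related pairs the span included 0 in every case, with 0.26 (-0.33 to 0.86) for Srebf1 against Srebf2 and -0.02 (-0.60 to 0.56) for Scd1 against Scd2.

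Of the 6 fatty acid genes, 4 were higher in clone 1, beside 44.3% of all measured genes, and 2 in clone 2. Their median was -0.17. Acly, which makes cytosolic acetyl-CoA from citrate, had 5.56 and 5.78 by its brighter probe and -1.14 and -1.17 by the other. Fasn, the fatty acid synthase, had 0.00 and -0.11. Neither gene differed beyond the spot error. The 3 members that desaturate and lengthen its product had slightly higher signals in clone 1, each within the spot error. Scd1 and Scd2, the stearoyl-CoA desaturases, had differences of -0.24 (0.96 and 0.72) and -0.22 (6.38 and 6.16). Elovl6, the elongase of palmitate, had 2.59 and 2.35. Among 6 further elongases and desaturases of the Elovl and Fads families, 3 were higher in each clone, near the shares of all genes (44.3% and 55.7%). They ran from -0.35 (Fads1) to 0.36 (Elovl7).

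Acaca, the acetyl-CoA carboxylase that makes malonyl-CoA, was read by 4 probes that disagreed. Overlapping probes at 84215093 and 84215094 of chromosome 11 in mm9 gave 4.10 and 4.20, and 3.93 and 4.04, differences of 0.11 each. The probe farthest upstream, at 84009021, had -1.42 and -1.44. The fourth, at 84211638, had -2.29 in clone 1 and -3.14 in clone 2, a difference of -0.85, beyond its spot error of 0.24, and 1 adjacent spot differed by 2-fold or more. That was the widest difference of any of the 40 detected probes, and none of the other 3 Acaca probes showed it.

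Stard4, a soluble carrier of cholesterol between membranes, was higher in clone 1 by both probes. Its levels were 2.28 and 2.12 by the brighter probe and -1.23 and -1.62 by the other, with differences of -0.16 and -0.39 within the spot error. Of the 10 members with 2 or more detected probes, 5 had all probes on the same side (Hsd17b7, Insig2, Mvk, Stard4 and Tm7sf2).

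**Figure D2:**
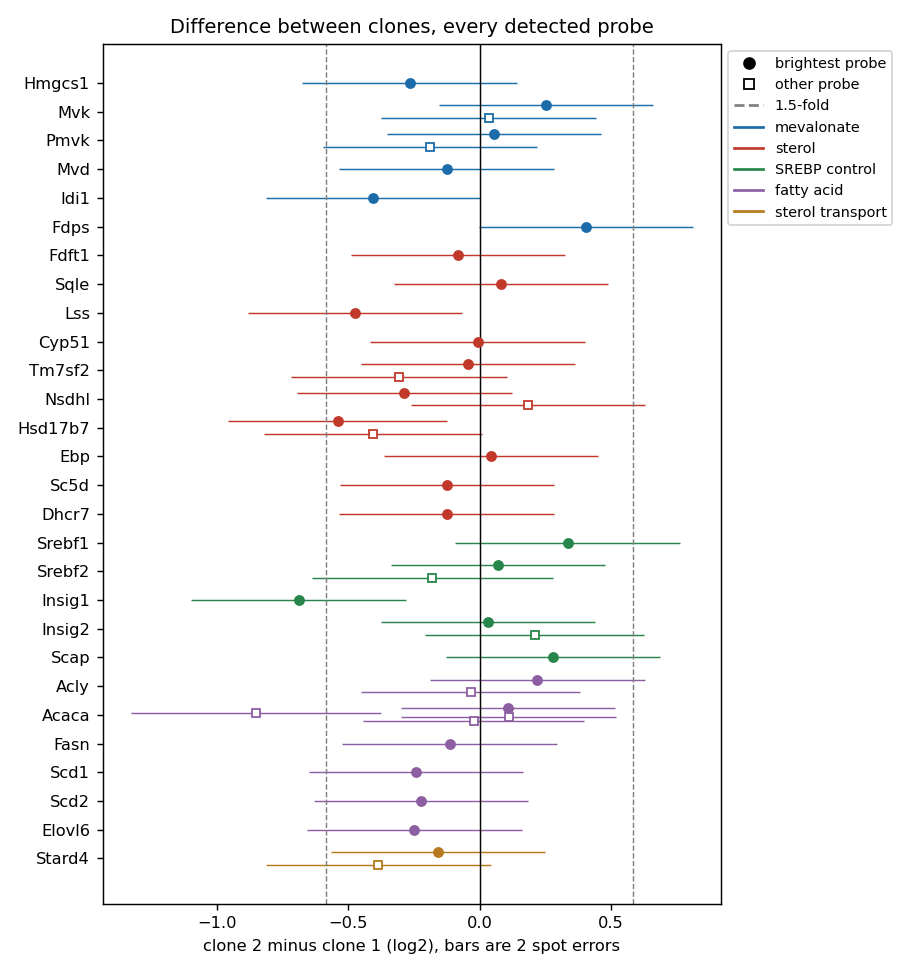
Difference between the clones (clone 2 minus clone 1, log2) for each of the 40 probes detected on both arrays; circles are the brightest probe of a gene, squares its other probes, bars 2 spot errors, and dashed lines 1.5-fold. The bars of Insig1, Lss, the first probe of Hsd17b7 and 1 probe of Acaca lie wholly below 0, and none lies wholly above.

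**Figure D3:**
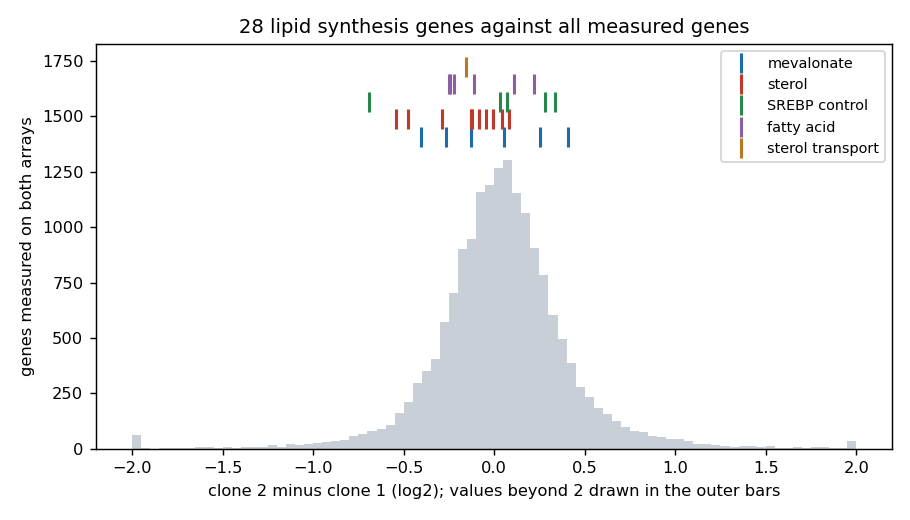
Number of genes (vertical axis) by difference between the clones (clone 2 minus clone 1, log2) over the 17282 genes measured on both arrays, with the 28 lipid genes as ticks above, a row for each role. The ticks run from -0.69 (Insig1, with 2.82% of all genes lower) to 0.41 (Fdps), and the median of all genes is 0.04.

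The size of the lean towards clone 1 varied with the processing. Scaling, background correction, probe choice and the deposited values were each varied, giving 8 ways of processing, under which the median of all genes ran from -0.04 to 0.11 and that of the 28 genes from -0.18 to -0.10. The number of members higher in clone 1 ran from 17 to 22. It was 22 with normexp background correction and with the deposited values, where 37.2% and 50.6% of all genes were higher in clone 1. With the scale set on detected probes it was 21, while the share of all genes higher in clone 1 was then 55.3%. Relative to the median of all genes, the median of the members was lower by 0.14 as reported (a value of -0.14) and by up to 0.29 with normexp background correction (-0.29). Under all 8, 17 genes stayed higher in clone 1, 5 stayed higher in clone 2 (Fdps, Mvk, Srebf1, Scap and Acly), and 6 took both signs (Acaca, Ebp, Insig2, Pmvk, Sqle and Srebf2). Insig1 passed 1.5-fold under each of the 8, with values from -0.76 to -0.69. Hsd17b7 passed it with 1 alternative scaling.

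**Figure D4:**
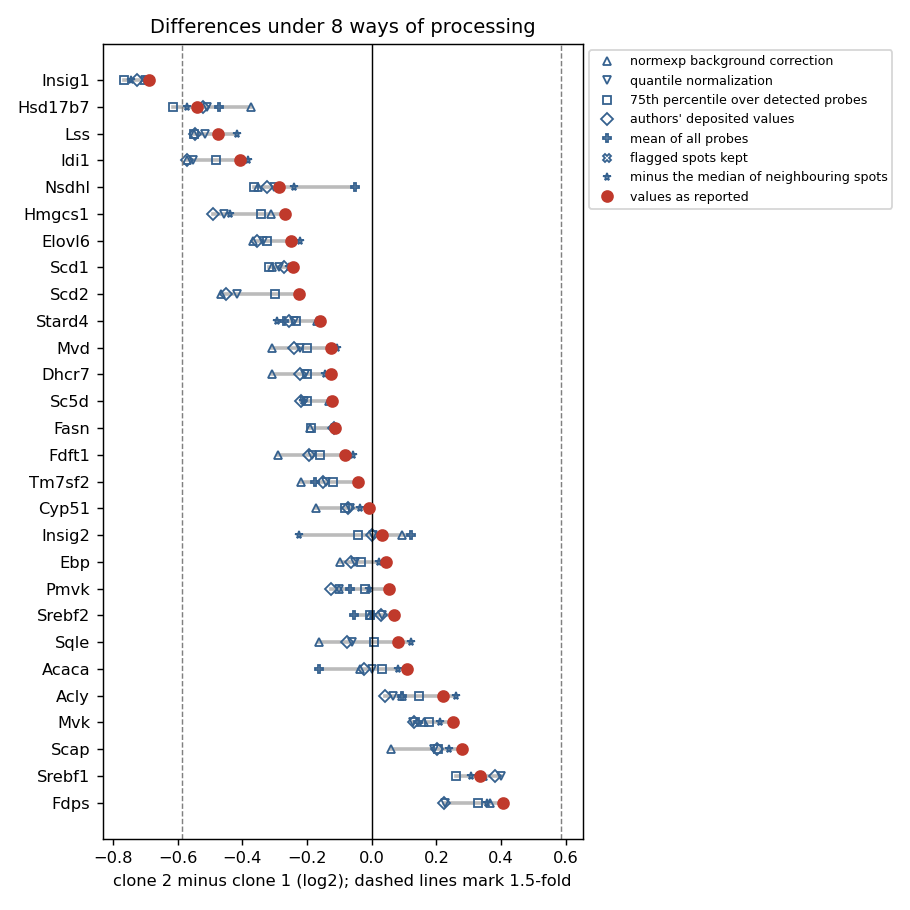
Difference between the clones (clone 2 minus clone 1, log2) for each of the 28 genes under 8 ways of processing, with the reported value in red and dashed lines at 1.5-fold. Insig1 lies beyond 1.5-fold in all 8 (-0.76 to -0.69), Hsd17b7 in 1, and the values of the 6 genes near 0 fall on both sides.

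Further genes of the same pathways were counted from 4 lists. Of 9 other sterol and isoprenoid genes on the array, all were detected on both arrays, beside 54.5% of all gene names. None was 1.5-fold apart, beside 3.85% of all genes higher in clone 1 and 5.95% higher in clone 2. Of the 9, 8 were higher in clone 1, beside the same 44.3% of all genes. The widest was Pdss1, which makes the side chain of ubiquinone, with -1.05 and -1.38 as means of 10 spots (beyond the spot error of such a mean). The only one higher in clone 2 was Fntb, a subunit of farnesyltransferase, by 0.06. Acat2, Ggps1 and Dhdds, 3 of the 8, were close to 0 (-0.02, -0.03 and -0.05), and second probes of Ggps1, Dhdds and Stard5 were higher in clone 2 (0.35, 0.15 and 0.21). Sc4mol (now Msmo1), the sterol oxidase that starts demethylation at carbon 4 and is named here for its place beside Nsdhl and Hsd17b7, was nearly level between clones (-0.08).

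Genes of SREBP processing and turnover were all detected on both arrays (7 of 7), beside 54.5% of all gene names. Higher in clone 2 were 5 of the 7, beside 55.7% of all measured genes. The Golgi proteases that cut SREBP differed in direction. Mbtps1, the site-1 protease, had 4.22 and 4.55, and Mbtps2, the site-2 protease, had -1.64 and -1.90. None of the 7 was beyond the spot error, beside 6.54% of all genes higher in clone 1 and 10.5% higher in clone 2.

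Of 17 other fatty acid genes, 15 were measured on both arrays, beside 54.5% of all gene names detected on both. Of the 15, 8 were higher in clone 2, near the 55.7% of all measured genes. Mlxipl, the glucose-responsive factor ChREBP, was the only one at least 1.5-fold apart, with -1.53 in clone 1 and -0.85 in clone 2 (1.60-fold higher in clone 2). Slc25a1, the carrier that exports citrate from mitochondria, had 3.24 and 2.80, a difference of -0.44 beyond its spot error. Of 8 genes of the sterol-sensing LXR factors and of sterol export and storage, 4 were higher in each clone, near the shares of all genes. They ran from Lpcat3, a lysophospholipid acyltransferase (-0.19), to Abcg1, a sterol exporter (0.27).

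Motifs were counted in the stretches of DNA just before the start of these genes. The genes were chosen by name and not by these letters. They were chosen from pathways driven by SREBP, however, so the counts are no independent finding. RefSeq windows on GRCm38.p6 matched 22 of the 28 genes, and the 250 bases before the annotated start were searched on both strands. A gene counted when any of its windows held a match. The 22 genes had 30 windows and all 27025 genes had 32851, so the members had more windows per gene. The letters TCACNCCAC of a sterol regulatory element were present for Hmgcs1 only among the 22, and for 1.22% of 27025 genes. With 1 mismatch allowed, a choice made after the exact matches were counted, 9 of 22 genes held it (40.9%) beside 23.0% of all genes and 25.8% of 9318 genes detected on both arrays. The NF-Y box CCAAT was present in 18 of 22 (81.8%) beside 37.5% of all genes and 40.0% of detected genes. The GC box GGGCGG, bound by Sp1, was present in 18 of 22 as well, beside 35.4% and 63.0%. The E-box CACGTG was present in 5 (Dhcr7, Hsd17b7, Insig1, Sc5d and Scap), 22.7% beside 6.86% and 9.62%. The GC content of these stretches had a median of 62.8% for the members and 59.6% for detected genes. A match describes the letters and shows no binding, and the arrays do not bear on it.

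The stretches before the 4 genes with the widest differences in favour of clone 1 are shown together with those of Hmgcs1, the gene with the exact sterol element, and Mvk, both of whose probes were higher in clone 2. Capitals mark the matches to the 4 motifs on either strand, and each runs from base -250 to base -1 before the start. Insig1 is at chr5:28071162-28071411 (plus strand), Hsd17b7 at chr1:169969206-169969455 (minus strand) and Lss at chr10:76531355-76531604 (plus strand). Idi1 is at chr13:8885356-8885605 (plus strand), Hmgcs1 at chr13:119690101-119690350 (plus strand) and Mvk at chr5:114444019-114444268 (plus strand).
Insig1: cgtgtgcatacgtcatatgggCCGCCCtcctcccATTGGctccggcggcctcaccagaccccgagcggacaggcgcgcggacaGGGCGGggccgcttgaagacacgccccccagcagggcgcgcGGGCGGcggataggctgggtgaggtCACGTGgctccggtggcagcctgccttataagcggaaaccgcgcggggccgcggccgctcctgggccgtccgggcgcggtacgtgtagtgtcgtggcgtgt
Hsd17b7: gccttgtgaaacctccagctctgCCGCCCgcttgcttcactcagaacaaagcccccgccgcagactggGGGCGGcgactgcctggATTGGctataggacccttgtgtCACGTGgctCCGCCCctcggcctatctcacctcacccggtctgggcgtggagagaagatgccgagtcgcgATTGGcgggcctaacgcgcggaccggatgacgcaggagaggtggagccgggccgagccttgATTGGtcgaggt
Lss: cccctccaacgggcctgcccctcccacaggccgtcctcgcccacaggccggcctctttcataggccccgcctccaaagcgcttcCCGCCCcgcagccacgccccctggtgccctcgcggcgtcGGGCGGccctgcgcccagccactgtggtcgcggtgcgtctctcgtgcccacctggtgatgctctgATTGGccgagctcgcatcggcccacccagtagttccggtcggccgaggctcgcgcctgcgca
Idi1: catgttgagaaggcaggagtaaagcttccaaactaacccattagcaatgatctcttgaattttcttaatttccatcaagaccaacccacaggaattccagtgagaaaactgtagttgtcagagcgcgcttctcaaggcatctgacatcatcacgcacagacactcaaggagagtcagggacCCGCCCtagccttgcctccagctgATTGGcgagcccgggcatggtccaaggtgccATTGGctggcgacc
Hmgcs1: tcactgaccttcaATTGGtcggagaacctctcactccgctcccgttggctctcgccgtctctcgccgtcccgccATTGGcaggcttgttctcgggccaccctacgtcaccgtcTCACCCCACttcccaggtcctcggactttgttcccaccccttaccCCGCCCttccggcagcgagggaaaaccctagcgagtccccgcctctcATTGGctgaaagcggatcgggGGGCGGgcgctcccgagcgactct
Mvk: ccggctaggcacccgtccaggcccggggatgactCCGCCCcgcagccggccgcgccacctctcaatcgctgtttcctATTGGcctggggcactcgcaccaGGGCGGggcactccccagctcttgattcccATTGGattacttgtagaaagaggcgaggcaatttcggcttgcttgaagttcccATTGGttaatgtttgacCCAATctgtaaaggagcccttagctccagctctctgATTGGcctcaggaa
Insig1 held 3 GC boxes, 1 NF-Y box and 1 E-box, and Hsd17b7 held 3 GC boxes, 3 NF-Y boxes and 1 E-box. Lss and Idi1, which differed in the same direction, held no E-box. Mvk held 5 NF-Y boxes, the most among members with 1 annotated start, and Hmgcs1 held its sterol element between -137 and -129 with NF-Y boxes on both sides. All 6 held at least 1 NF-Y box and 1 GC box, but only Mvk among them was higher in clone 2. Of the matched members not shown, Acly, Acaca and Scap (higher in clone 2) and Elovl6 (higher in clone 1) held no NF-Y box. Whether the motifs go with the direction of the difference was not tested.

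**Figure D5:**
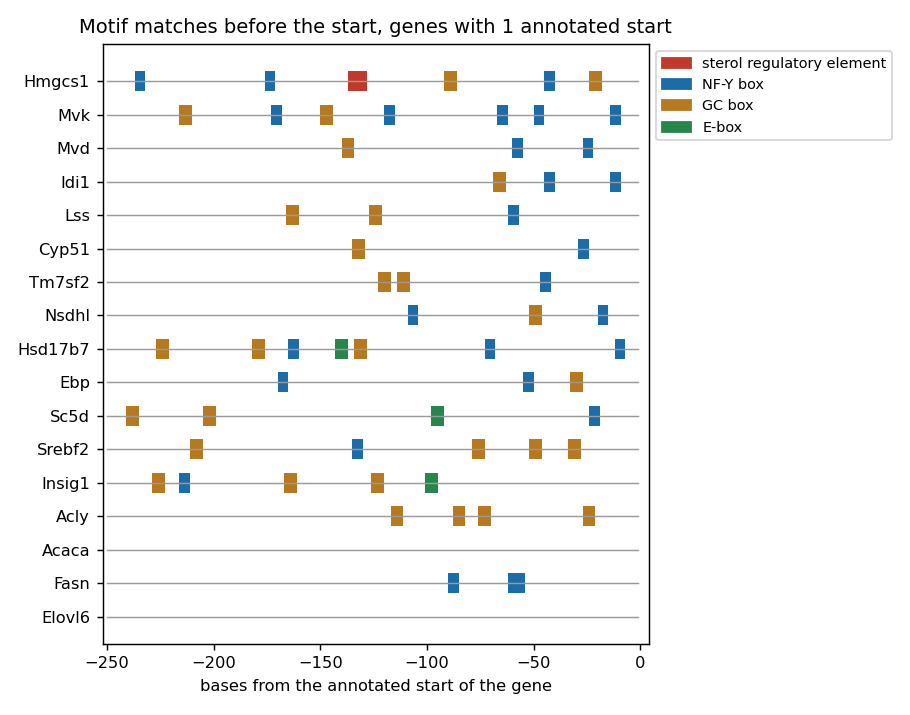
Matches to 4 motifs in the 250 bases before the start (horizontal axis, bases from the annotated start) of the 17 genes with 1 annotated start, coloured by motif. NF-Y and GC boxes recur in most rows, the sterol regulatory element appears in Hmgcs1 only, and Acaca and Elovl6 have no match.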

How the data were processed

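RNA of 2 EpiSC clones was labelled with Cy3 and hybridised to 1-colour Agilent arrays (design 026655), per the labels' protocols and file headers. Per the file headers, Feature Extraction 11.0.1.1 (protocol GE1_1100_Jul11) made the deposited processed signal intensity of each spot by background subtraction and spatial detrending, with no scaling between arrays and probe positions on mm9. A table of normalized values, deposited by the authors, holds linear intensity values too, and the sources used here do not give its method. Its column medians are 65.8 for both clones, its log2 values correlated with the scanner signals at 0.999 and 1.00 across probes, and it served only as an alternative.

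Spots with an outlier flag were left out (277 and 246 of 43020 spots). Each probe got the mean log2 signal of its spots, less the array's 75th percentile over all probes (830 in clone 1 and 736 in clone 2 as linear signals, or 104 times and 103 times the median of 153 negative control spots). Detection of a probe required the flag for signal well above background on 50% or more of its spots. Genes carry the names of the array's own gene column, and the brightest probe by mean signal stands for a gene. The replicate number of both samples is 1, so no test between clones, p-value or SE was possible; the arrays' number limits the precision.

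The members, lists, motifs, the 1.5-fold threshold and the alternatives were chosen with earlier results of these data known. By the rule on naming, all 28 members are named, and from 4 further lists those at least 1.5-fold apart or with the widest difference in each direction. A further listed gene was left out of the list counts and is not reported here. Normexp correction (limma 3.58.1 in R 4.3.3, offset 50), quantile normalization, a percentile over detected probes, the deposited table, the mean of all probes, flagged spots kept and subtraction of the median of spots within 5 rows and columns were the alternatives. On simulated data, 197 of 197 detected probes changed by 2-fold were recovered at the 1.5-fold threshold, and 1 of 22401 unchanged probes was called. Both simulated arrays were built from the signals of clone 1 with random spot noise only. The check therefore bears on the code, and not on the spread between cultures or clones. Tables were handled with pandas 2.3.3 in Python 3.11.15.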

Additional observations from a re-analysis of the deposited data

How the results depend on the processing

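All 28 genes were detected on both arrays also with the positive and significant flag and with flagged spots kept. The number of members at least 1.5-fold higher in clone 1 was 1, Insig1, and it was 2 with the 75th percentile over detected probes and 0 with a 2-fold threshold; none was 1.5-fold higher in clone 2 in any setting. The number beyond 2 spot errors, in every setting a count chosen after seeing the data, was 3 for genes higher in clone 1 as reported. It was 3 or 4 under 5 alternatives, and 6 with quantile normalization and with the deposited values. No gene was beyond 2 spot errors and higher in clone 2. The median difference stayed below 0 in all 8 settings. Of the 196 differences of single genes under alternatives, 149 lay within 0.106 log2 (the measured spot noise) of the reported value. The other 47 lay farther off. Part of the 149 was fixed in advance. The percentile over detected probes and keeping flagged spots each moved all 28 genes by a common step smaller than 0.106. The mean of all probes left genes with 1 detected probe unchanged. Only Insig1, the 1 member at least 1.5-fold apart as reported, had a call that could reverse, and 0 values reversed it. Among the members without such a call, 6 took both signs. With normexp correction 9.45% of all genes were 1.5-fold higher in clone 2 and 1.83% in clone 1, beside 5.95% and 3.85% as reported. No paired analysis was possible because each clone has 1 array and the shared number 1 gives fewer than 2 pairs. Without replicate cultures, the spread within a clone is unknown.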
